A study of Mus musculus with 5 samples.

Results

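The Hedgehog pathway genes described here are the 3 ligands *Shh*, *Ihh* and *Dhh*, the membrane proteins *Smo*, *Ptch1* and *Hhip*, and the transcription factors *Gli1*, *Gli2* and *Gli3*, chosen by symbol, and they were 9 of the 32286 features counted. All were measured in single cells from 5 tumors of *hSS2* mice, in which Cre protein (TATCre) injected into the limb switches on the human fusion *SS18::SSX2* from the Rosa26 locus, a model of synovial sarcoma (SyS). Tumors were taken at morbidity, and their histology in the labels was biphasic (BP, replicates 1 and 2), monophasic (MP), monophasic with biphasic (MP+BP) or poorly differentiated with monophasic (PD+MP), with 1 tumor for each of the last 3. All 5 tumors express the fusion and no tissue without it was measured, so the cells of other classes in the same tumors are the only cells to set beside the tumor cells.

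Hedgehog ligands are secreted proteins made by one cell and received by another or by the same cell. In the absence of ligand the receptor PTCH1 holds SMO inactive. Ligand binding releases SMO, which acts at the primary cilium and leaves the GLI proteins as activators instead of repressors. *Gli1*, *Ptch1* and *Hhip* are themselves transcribed in response, so their RNA is commonly used as a readout, and PTCH1 and HHIP then bind ligand and limit the response. In developing limb and cartilage, SHH patterns the limb bud and IHH paces cartilage growth.

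The tumors gave between 8931 and 11565 cells and between 89996321 and 118649103 unique molecular identifiers (UMIs, each standing for 1 captured RNA molecule), and any pair of libraries shared between 15 and 33 cell barcodes. After filtering, 39559 cells fell into 31 clusters. Of these, 16 with 24077 cells met between 3 and 10 of the 12 listed SyS markers and are called SyS-like. The fewest were met by cluster 13, of PD+MP alone. The other classes compared are macrophage-like (3881 cells), endothelial-like (2422 cells) and pericyte-like (1267 cells), each present in all 5 tumors, although PD+MP held only 39 pericyte-like and 80 endothelial-like cells. The SyS marker list summed to between 3049 and 4630 CPM (UMIs of a gene per 1000000 UMIs of the summed cells) in SyS-like cells and to between 98.0 and 501 CPM in the 3 other classes. The transcript listed as *EGFP*, used neither for clustering nor for naming, lay between 31.3 and 42.0 CPM in SyS-like cells and between 0 and 6.52 CPM in those classes. The 9 members and the pathway genes below were likewise kept out of clustering.

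The chief comparison asked where in the tumor the pathway's genes were expressed. *Shh*, *Smo*, *Ptch1*, *Hhip*, *Gli2* and *Gli3* were higher in SyS-like cells than in each of the 3 other classes, and *Gli1* was higher than in 2 of them. *Dhh* had its highest level in endothelial-like cells. *Ihh* was the lowest member in SyS-like cells (mean 0.435 CPM) and rested on at most 5 UMIs in each of the 3 other classes. Counts were summed per tumor and class and compared within tumors by edgeR's quasi-likelihood test with Benjamini-Hochberg adjustment over all genes, a gene being called at an adjusted p under 0.05. Against pericyte-like cells 6 of the 9 members were called higher and 0 lower, beside 20.9% of all genes called higher and 11.8% called lower. Against endothelial-like cells 7 were called higher and 1 lower, beside 31.8% and 19.6%. Against macrophage-like cells 8 were called higher and 0 lower, beside 38.5% and 24.0%. The median log2 difference of the 9 members was 1.22, 2.54 and 3.93 in these comparisons, beside 0.20, 0.20 and 0.27 over all genes. Without scaling beyond total counts the medians over all genes became 0.47, 0.47 and 0.90, so small differences are to be read against this shift. Keeping doublets lowered the differences of *Shh*, *Ptch1*, *Hhip*, *Gli1*, *Gli2* and *Gli3* to between 1.72 and 2.57 against endothelial-like and to between 1.99 and 2.40 against macrophage-like cells, and all of these were still called.

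**Figure D1:**
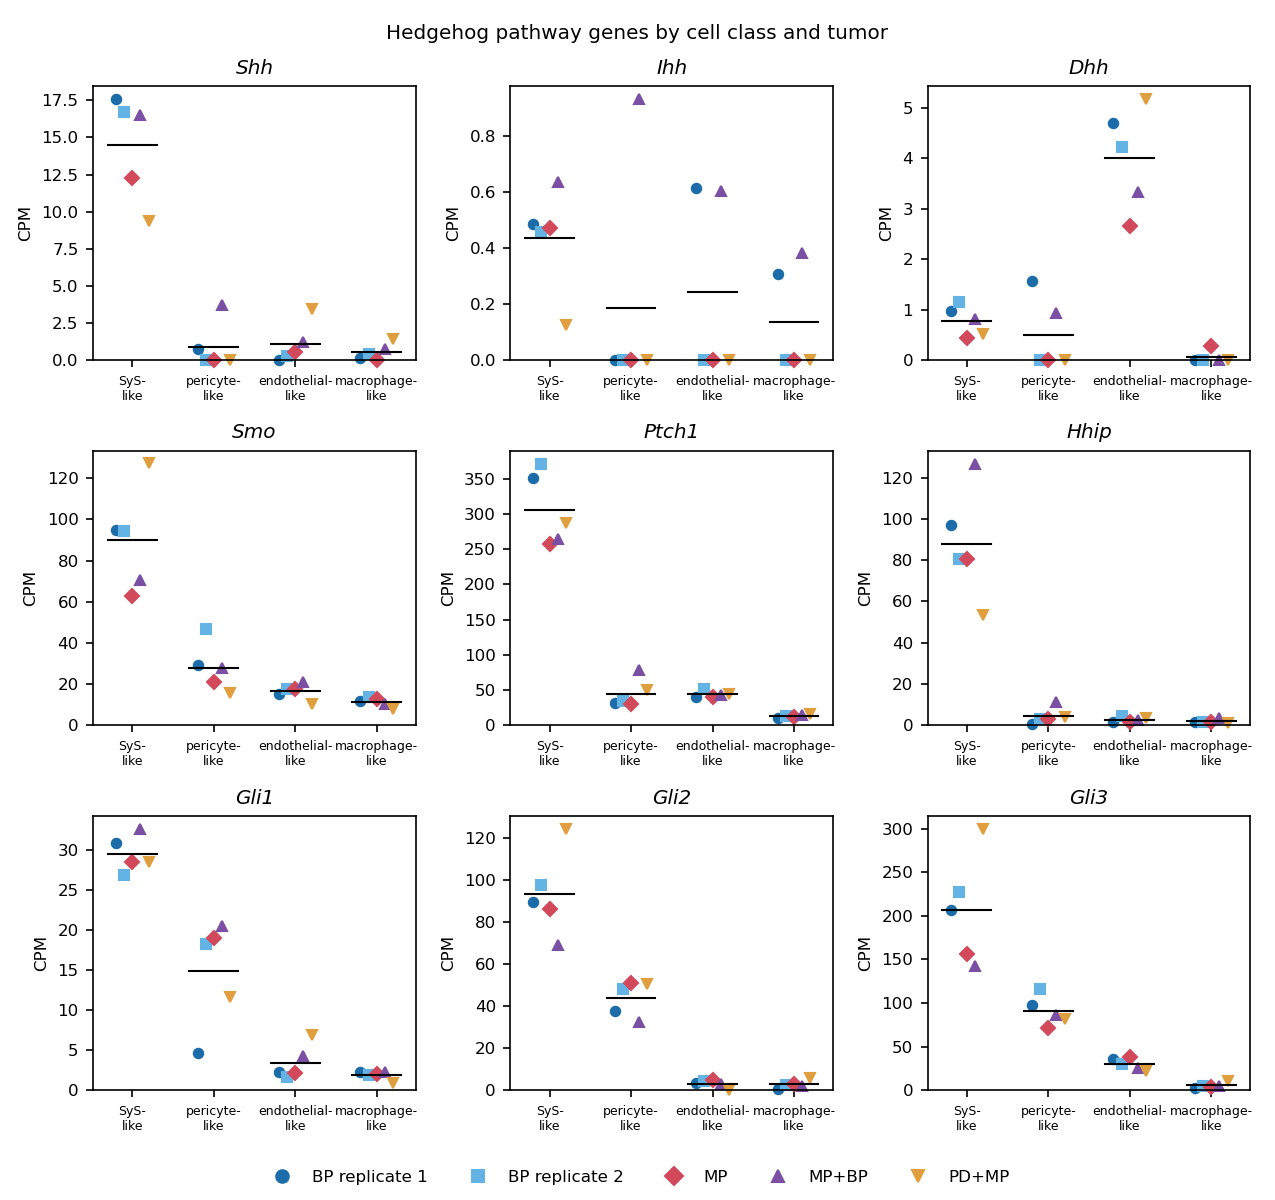
Level of each Hedgehog gene (CPM, linear axes that differ between panels) in the summed cells of 4 classes. Each symbol is 1 tumor and each bar the mean of 5 tumors. *Ptch1*, *Hhip*, *Smo*, *Gli1*, *Gli2*, *Gli3* and *Shh* stand highest in SyS-like cells in all 5 tumors, and *Dhh* in endothelial-like cells.

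Among the ligands, *Shh* (ENSMUSG00000002633, chromosome 5, 28456815 to 28467256 on the minus strand of GRCm38) was the one with the highest level in SyS-like cells. Its level there was 17.6 CPM (BP replicate 1), 16.7 (BP replicate 2), 12.2 (MP), 16.5 (MP+BP) and 9.36 (PD+MP), a mean of 14.5 ± 3.54 CPM (SD, n = 5). In pericyte-like cells *Shh* was at 0.785 CPM in BP replicate 1, at 3.73 CPM in MP+BP and at 0 UMIs in the other 3 tumors. The ranges of these 2 classes did not overlap. The log2 difference was 3.82 ± 0.61 (SE, edgeR adjusted p = 0.000224), higher in 5 of 5 tumors.

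The pericyte-like side of that comparison rests on 5 *Shh* UMIs in all, 4 of them from MP+BP. The pooled counts gave a ratio of 17.2 with an exact 95% interval of 7.36 to 53.0, which covers counting error only. Without MP+BP the log2 difference was 5.80 and without MP it was 3.23, both called. Pericyte-like cells of MP+BP also had the highest *EGFP* (6.52 CPM, against 0 to 1.57 CPM in the others), and the part of RNA carried over from tumor cells in these values was not tested. In endothelial-like cells *Shh* ranged from 0 to 3.45 CPM (10 UMIs) and the log2 difference was 4.41 ± 0.57 (edgeR adjusted p = 9.14e-05). In macrophage-like cells it ranged from 0 to 1.42 CPM (14 UMIs) and the difference was 3.96 ± 0.49 (edgeR adjusted p = 3.47e-05), or 5.13 without PD+MP, which held 9 of those UMIs.

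*Dhh* (ENSMUSG00000023000, chromosome 15, 98891152 to 98898540, minus strand), the ligand best known from Schwann cells and testis, showed the opposite pattern. Endothelial-like cells held 4.70 CPM (BP replicate 1), 4.23 (BP replicate 2), 2.65 (MP), 3.33 (MP+BP) and 5.18 (PD+MP), from 67 UMIs in all. SyS-like cells held 0.976, 1.16, 0.432, 0.818 and 0.513 CPM in the same order, below the endothelial-like value in every tumor. *Dhh* was thus lower in SyS-like than in endothelial-like cells by 2.55 ± 0.28 on the log2 scale, with a log2 difference of -2.55 (edgeR adjusted p = 3.21e-05), and the pooled ratio was 0.204 (exact 95% interval 0.155 to 0.271). The *EGFP* level in endothelial-like cells, 0 to 1.69 CPM, was at most 4.87% of the SyS-like level (up to 14.7% by the limit for PD+MP, where it was at 0), whereas *Dhh* stood at 364% to 1010% of it.

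In pericyte-like and macrophage-like cells *Dhh* rested on very few UMIs. A count of 0 in pericyte-like cells allowed up to 1.10 CPM in MP and 4.23 CPM in BP replicate 2. Both limits lie above the SyS-like level of the same tumor, so the pericyte-like counts do not show absence. Pericyte-like cells held 3 UMIs (0 to 1.57 CPM), and the difference from SyS-like cells did not pass the test (log2 difference 0.24 ± 0.90, edgeR adjusted p = 0.861; pooled ratio 1.53, exact 95% interval 0.518 to 7.48). Macrophage-like cells held 1 UMI, and the difference was called (log2 difference 3.49 ± 1.08, edgeR adjusted p = 0.0149), a call that sets 1 UMI against 254 (pooled ratio 18.0, exact 95% interval 3.21 to 715) and was lost without BP replicate 1 or BP replicate 2 (adjusted p = 0.062 and 0.06). Without MP, the tumor with that UMI, macrophage-like *Dhh* was at 0. *Rhebl1* overlaps *Dhh* on the same strand, so reads from the overlap are uncertain.

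*Ihh* (ENSMUSG00000006538, chromosome 1, 74945315 to 74951672, minus strand) had 144 UMIs in all 24077 SyS-like cells, lowest for PD+MP (0.125 CPM) and highest for MP+BP (0.635 CPM). Pericyte-like, endothelial-like and macrophage-like cells held 1, 5 and 3 UMIs. None of the 3 differences passed the test (log2 differences 1.22 ± 1.41, 0.54 ± 0.80 and 1.03 ± 0.82; edgeR adjusted p = 0.533, 0.588 and 0.28), and the pooled ratios were 2.61, 1.55 and 3.41, with exact 95% intervals of 0.460 to 104, 0.649 to 4.84 and 1.14 to 16.7. By the test over tumors a difference in *Ihh* was not detectable at this depth.

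The receptor gene *Ptch1* (ENSMUSG00000021466, chromosome 13, 63508328 to 63573598, minus strand) stood at 350 CPM (BP replicate 1), 371 (BP replicate 2), 258 (MP), 264 (MP+BP) and 287 (PD+MP) in SyS-like cells, a mean of 306 ± 51.7 CPM (SD, n = 5). Pericyte-like cells held 31.4, 33.8, 30.4, 79.2 and 50.7 CPM in the same order, and endothelial-like cells 40.5, 51.8, 40.1, 43.0 and 44.9 CPM. All SyS-like values lay far above both classes, whose own ranges overlapped. Macrophage-like cells were lowest, from 10.2 to 16.2 CPM, below every value of the other classes. The log2 differences were 2.59 ± 0.26 against pericyte-like, 2.54 ± 0.14 against endothelial-like and 3.93 ± 0.18 against macrophage-like cells (edgeR adjusted p = 2.97e-05, 3.65e-07 and 2.39e-08).

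*Ptch1* was also found outside the SyS-like cells. Its level in endothelial-like cells was 11.6% to 16.3% of the SyS-like level and that in pericyte-like cells 8.96% to 30.03%. Both exceeded the share that *EGFP* reached in the same class in the 4 tumors where *EGFP* was found there, although *EGFP* rested on only 16 UMIs in endothelial-like and 13 in pericyte-like cells. PD+MP had no *EGFP* UMI in either class, and a count of 0 allows a share of up to 14.7% (endothelial-like) and 33.2% (pericyte-like), beside *Ptch1* shares of 15.7% and 17.7%. In macrophage-like cells the *Ptch1* share, 2.90% to 5.66%, exceeded that of *EGFP* (1.81% to 8.08%) in only 2 of 5 tumors.

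*Hhip* (ENSMUSG00000064325, chromosome 8, 79965851 to 80058006, minus strand), which encodes a membrane protein that binds and sequesters the ligands, was higher in SyS-like cells than in each of the other classes. SyS-like cells held 97.0 CPM (BP replicate 1), 80.4 (BP replicate 2), 80.6 (MP), 127 (MP+BP) and 53.6 (PD+MP), a mean of 87.6 ± 26.8 CPM (SD, n = 5). Pericyte-like cells held 0.785, 2.82, 3.29, 11.2 and 3.90 CPM, with the highest value again in MP+BP, and endothelial-like and macrophage-like cells never passed 4.51 CPM. The log2 differences were 4.21 ± 0.31, 5.001 ± 0.292 and 4.94 ± 0.19 (edgeR adjusted p = 3.14e-07, 2e-07 and 6.14e-09).

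Outside the SyS-like cells the *Hhip* share of the SyS-like level exceeded that of *EGFP* in 1 of the 4 tumors with *EGFP* in pericyte-like cells, in 3 of 4 in endothelial-like cells and in 1 of 5 in macrophage-like cells. The part of carried-over RNA in these levels was not tested. With doublets kept, the *Hhip* differences fell to 2.37, 2.25 and 2.40 on the log2 scale and were still called.

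*Smo* (ENSMUSG00000001761, chromosome 6, 29735503 to 29761365, plus strand), the signal transducer, ranged in SyS-like cells from 62.6 CPM (MP) to 127 CPM (PD+MP), with the BP replicates at 94.8 and 94.5 CPM and MP+BP at 70.3 CPM. The other classes held 15.6 to 46.5 CPM (pericyte-like), 10.3 to 21.2 CPM (endothelial-like) and 8.03 to 13.6 CPM (macrophage-like), and their ranges overlapped one with the next. All 3 differences were called (log2 differences 1.33 ± 0.23, 2.05 ± 0.26 and 2.34 ± 0.23; edgeR adjusted p = 0.000689, 0.000107 and 6.37e-06). The *Smo* share of the SyS-like level, at least 6.31%, exceeded that of *EGFP* in every class and tumor where *EGFP* was found. In PD+MP the *Smo* shares of 12.3% (pericyte-like) and 8.14% (endothelial-like) lay below what its *EGFP* count of 0 allows.

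**Figure D2:**
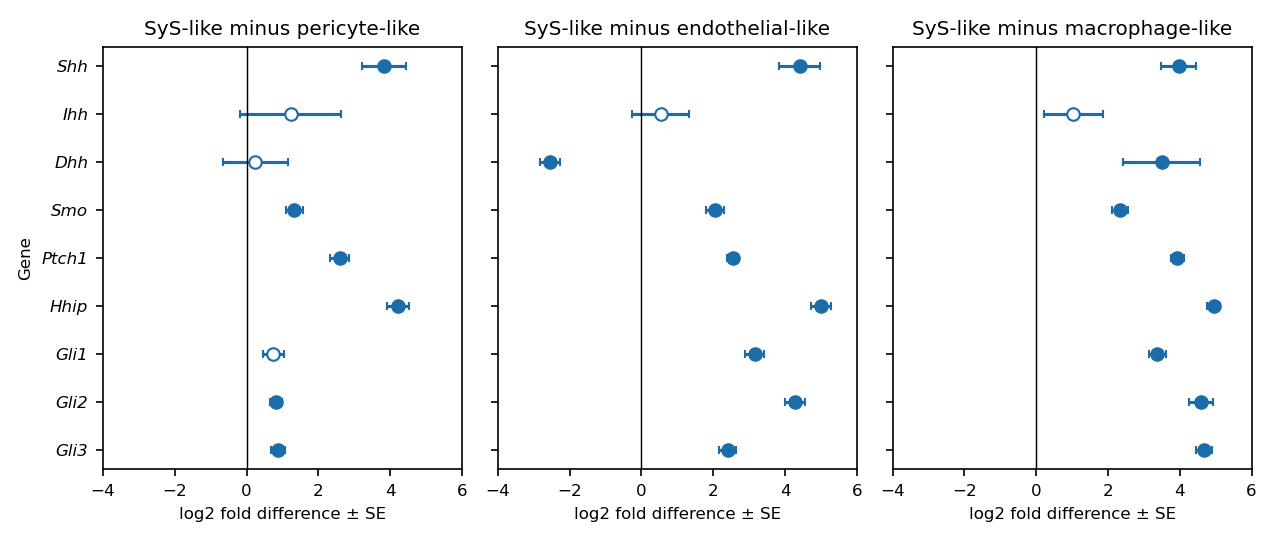
Log2 difference of SyS-like cells from pericyte-like, endothelial-like and macrophage-like cells for each Hedgehog gene, with its standard error, from edgeR on sums per tumor and class (5 tumors). Filled symbols passed an adjusted p of 0.05. *Gli1*, *Gli2* and *Gli3* lie between 0.75 and 0.88 against pericyte-like cells and above 2.40 against the others, and *Dhh* lies at -2.55 against endothelial-like cells.

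The promoters of *Ptch1*, *Hhip* and *Dhh* are shown because the first pair are response genes high in SyS-like cells and the third is the member with the reverse pattern. RefSeq promoters on GRCm38.p6, 250 bases before to 50 after the start, were found for 7 of the 9 members (*Ihh*, *Dhh*, *Smo*, *Ptch1*, *Hhip*, *Gli2* and *Gli3*). Each is printed 5′ to 3′ on the strand of its gene, with GC boxes (GGGCGG, or CCGCCC on the other strand) in capitals. They lie at chr13:63565686-63565985 (*Ptch1*), chr8:80057959-80058258 (*Hhip*) and chr15:98898491-98898790 (*Dhh*), all on the minus strand. The *Ptch1* window belongs to a start 7863 bases inside the gene as given above, and that of *Gli3*, not printed, to one 488 bases inside, so other starts of these genes were not searched.
Ptch1: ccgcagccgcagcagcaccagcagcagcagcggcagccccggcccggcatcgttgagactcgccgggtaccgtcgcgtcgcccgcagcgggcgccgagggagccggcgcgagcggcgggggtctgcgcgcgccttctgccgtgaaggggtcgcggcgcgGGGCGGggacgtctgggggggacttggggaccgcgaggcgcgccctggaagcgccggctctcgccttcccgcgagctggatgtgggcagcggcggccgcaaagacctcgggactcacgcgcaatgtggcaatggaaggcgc
Hhip: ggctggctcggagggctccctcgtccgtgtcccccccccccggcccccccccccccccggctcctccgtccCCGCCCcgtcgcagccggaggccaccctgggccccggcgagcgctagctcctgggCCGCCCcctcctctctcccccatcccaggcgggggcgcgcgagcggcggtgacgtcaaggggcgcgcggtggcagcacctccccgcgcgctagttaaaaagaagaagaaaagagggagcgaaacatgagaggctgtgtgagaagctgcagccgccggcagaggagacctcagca
Dhh: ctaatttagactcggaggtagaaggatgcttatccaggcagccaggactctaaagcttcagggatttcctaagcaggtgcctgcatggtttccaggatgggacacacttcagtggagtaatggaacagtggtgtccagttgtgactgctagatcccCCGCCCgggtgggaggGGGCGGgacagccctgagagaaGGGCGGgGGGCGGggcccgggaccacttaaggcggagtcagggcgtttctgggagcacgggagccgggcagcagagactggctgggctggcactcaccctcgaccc
The *Ptch1* window was 76.3% GC with 47 CpG dinucleotides, the *Hhip* window 73.7% with 30 and the *Dhh* window 61.7% with 12, beside medians of 52.7% and 7 over 32851 promoters. *Dhh* held 4 GC boxes, *Hhip* 2 and *Ptch1* 1, and 35.7% of all promoters held at least 1. The GLI consensus GACCACCCA (TGGGTGGTC on the other strand) was in none of the 7 windows, and in 0.253% of all promoters. The closest stretches differed from it by 2 bases in *Hhip* and *Dhh* and by 3 in *Ptch1*.

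*Gli1* (ENSMUSG00000025407, chromosome 10, 127329882 to 127341974, minus strand), an activator whose own transcription follows pathway activity, was the most even member across tumors. SyS-like cells held 30.9 CPM (BP replicate 1), 26.9 (BP replicate 2), 28.5 (MP), 32.7 (MP+BP) and 28.5 (PD+MP), a mean of 29.5 ± 2.29 CPM (SD, n = 5). Pericyte-like cells held 4.71, 18.3, 19.0, 20.5 and 11.7 CPM, below the SyS-like value of the same tumor in 5 of 5, yet the difference missed the threshold (log2 difference 0.75 ± 0.29, edgeR adjusted p = 0.0658). Over the 15 alternative settings that adjusted p ran from 0.013 to 0.19, and 5 settings called it.

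Pericyte-like *Gli1* lay at 15.2% to 68.1% of the SyS-like level and exceeded the *EGFP* share in the 4 tumors with *EGFP* there, and in PD+MP, at 41.1%, the limit that its count of 0 allows. In endothelial-like cells *Gli1* was lower, at 1.69 to 6.90 CPM (log2 difference 3.15 ± 0.26, edgeR adjusted p = 3.92e-06), and in macrophage-like cells it was at 0.944 to 2.31 CPM (log2 difference 3.38 ± 0.23, edgeR adjusted p = 4.48e-07). A *Gli1* UMI was found in 23.1% to 37.0% of SyS-like cells per tumor and in 0.523% to 1.56% of macrophage-like cells, at median depths of 8167 to 13862 and 4298 to 6646 UMIs per cell. With every cell thinned to 3000 UMIs these shares were 7.198% to 9.37% and 0.225% to 0.508%. Pericyte-like cells then ranged from 0% in BP replicate 1 to 6.06% of 33 cells in PD+MP.

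*Gli2* (ENSMUSG00000048402, chromosome 1, 118834132 to 119053619, minus strand), the main activator of the response, stood at 89.5 CPM (BP replicate 1), 97.5 (BP replicate 2), 86.3 (MP), 69.1 (MP+BP) and 124 (PD+MP) in SyS-like cells. Pericyte-like cells held 37.7, 47.9, 50.8, 32.6 and 50.7 CPM, a lower range without overlap (log2 difference 0.81 ± 0.17, edgeR adjusted p = 0.00262). Endothelial-like cells (0 to 4.95 CPM) and macrophage-like cells (0.462 to 5.67 CPM) were lower still, with log2 differences of 4.29 ± 0.28 and 4.58 ± 0.34 (edgeR adjusted p = 9.03e-07 and 2.33e-06).

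*Gli3* (ENSMUSG00000021318, chromosome 13, 15463235 to 15730026, plus strand), whose protein acts largely as the repressor, was at 206 CPM (BP replicate 1), 228 (BP replicate 2), 156 (MP), 143 (MP+BP) and 300 (PD+MP) (SyS-like cells). It was the only member whose 4 classes each held a separate range, with 71.0 to 116 CPM in pericyte-like, 22.4 to 38.2 CPM in endothelial-like and 2.93 to 10.9 CPM in macrophage-like cells. The log2 differences from SyS-like cells were 0.88 ± 0.18, 2.40 ± 0.24 and 4.67 ± 0.21 (edgeR adjusted p = 0.00285, 2.27e-05 and 2.24e-08). Of the 3 other classes tested, the pericyte-like cells came nearest to the tumor cells in all 3 *Gli* genes (smaller classes, not tested, are given below). Their median shares of the SyS-like level were 62.8% (*Gli1*), 47.2% (*Gli2*) and 47.1% (*Gli3*), while their median *Hhip* and *Ptch1* shares were 4.08% and 11.8%. The fibroblast marker list summed to between 2302 and 3718 CPM in pericyte-like cells and to between 146 and 500.0 CPM in SyS-like cells, and its part in these values was not tested. Genes on the opposite strand overlap *Shh*, *Dhh*, *Gli1* and *Gli3*, and the strand setting of the counting was not given in the sources used here.

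Other genes of the pathway were taken from lists by role, and no list was tested as a set. Over all genes, 20.9% were called higher and 11.8% lower against pericyte-like cells. The shares were 31.8% and 19.6% against endothelial-like cells, and 38.5% and 24.0% against macrophage-like cells. The counts of each list are to be read beside these shares. Among 6 genes for release of the ligand, 4 were called higher in SyS-like than in pericyte-like cells and 1 lower, with a list median of 1.22 on the log2 scale. The *Scube* genes, whose secreted products carry the lipid-bearing ligand away from the cell, were higher against all 3 classes. *Scube3* stood at 31.6 CPM in SyS-like and 3.20 CPM in pericyte-like cells (log2 difference 2.96 ± 0.31, edgeR adjusted p = 7.45e-06). *Hhat*, which attaches palmitate to the ligand, was lower than in pericyte-like cells (6.22 against 10.8 CPM, log2 difference -0.97 ± 0.32, edgeR adjusted p = 0.0343). Against endothelial-like cells 3 of the 6 were higher and 3 lower (list median 0.48), and against macrophage-like cells 3 of 5 tested were higher and 1 lower (list median 2.87). The gene called lower there had a mean of 16.3 CPM in SyS-like and 15.5 CPM in macrophage-like cells, so its call and its unscaled levels differ in direction.

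The co-receptors and binding proteins were mostly higher in SyS-like cells, with 5 of 6 called higher against each class and list medians of 2.87, 3.95 and 4.09. Against pericyte-like cells 1 was called lower, and against each of the other classes 1 was not called. *Gpc3*, a glypican that binds the ligands and competes with PTCH1, stood at 978 CPM in SyS-like cells and at 70.8 CPM in pericyte-like cells (log2 difference 3.67 ± 0.44, edgeR adjusted p = 0.000869). *Cdon*, a ligand co-receptor, stood at 255 and 18.6 CPM (log2 difference 3.66 ± 0.47, edgeR adjusted p = 0.000979). *Boc*, its relative, was 57.5 CPM against 2.41 CPM in endothelial-like cells (log2 difference 4.16 ± 0.29, edgeR adjusted p = 7.83e-07), and *Gas1*, another co-receptor, 147 CPM against 4.89 CPM in macrophage-like cells (log2 difference 4.30 ± 0.17, edgeR adjusted p = 8.07e-09).

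Of 14 intracellular transduction genes, 0 were called higher and 2 lower against pericyte-like cells, with a list median of 0.18 beside 0.20 over all genes. The lower pair were *Prkacb*, a catalytic subunit of the kinase that marks GLI proteins for processing (68.3 against 291 CPM, log2 difference -2.33 ± 0.15, edgeR adjusted p = 2.43e-07), and *Csnk1a1*, a kinase acting in the same step (301 against 383 CPM, log2 difference -0.58 ± 0.13, edgeR adjusted p = 0.00435). Against endothelial-like cells 5 were higher and 4 lower, beside 31.8% and 19.6% of all genes. Against macrophage-like cells 7 were higher and 2 lower, beside 38.5% and 24.0%. Of these 2, *Prkacb* had a mean of 68.3 CPM in SyS-like and 56.9 CPM in macrophage-like cells (log2 difference -0.37 ± 0.14, edgeR adjusted p = 0.0348). Its call and its unscaled levels thus differ in direction. *Evc* and *Evc2*, which hold SMO at the base of the cilium, led the higher ones against endothelial-like cells, with log2 differences of 3.51 ± 0.30 and 3.43 ± 0.30 (edgeR adjusted p = 2.45e-06 and 3.24e-06). Of 8 cilium genes, 3, 5 and 7 were called higher against the 3 classes, and 1, 1 and 0 lower. *Dync2h1*, the motor of retrograde transport in the cilium, was higher against pericyte-like cells (79.2 against 23.7 CPM, log2 difference 1.57 ± 0.21, edgeR adjusted p = 0.0001).

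Among 18 GLI targets known from other tissues, 16, 15 and 14 passed the filter on low counts. Against pericyte-like cells 6 were higher and 4 lower, beside 20.9% and 11.8% of all genes. Against endothelial-like cells 6 were higher and 4 lower, beside 31.8% and 19.6%. Against macrophage-like cells 10 were higher and 0 lower, beside 38.5% and 24.0%. *Nkx2-2*, a target in the ventral neural tube, was higher against all 3 classes and stood at 17.8 CPM in SyS-like and 2.16 CPM in pericyte-like cells (log2 difference 2.68 ± 0.57, edgeR adjusted p = 0.00305). *Bmp4*, a growth factor gene, stood at 38.8 and 4.37 CPM (log2 difference 2.85 ± 0.34, edgeR adjusted p = 2.18e-05). *Foxc2*, a forkhead factor of mesoderm and vessels, was lower than in pericyte-like cells at 0.574 against 41.8 CPM (log2 difference -6.59 ± 0.34, edgeR adjusted p = 4.78e-08), and *Snai1* at 5.33 against 53.2 CPM (log2 difference -3.54 ± 0.30, edgeR adjusted p = 4.46e-06).

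Smaller classes were described without a test. The 120 fibroblast-like cells of PD+MP, the only tumor with at least 20 of them, held *Gli1* at 12.8 CPM, *Gli2* at 60.6 CPM, *Gli3* at 123 CPM and *Ptch1* at 42.2 CPM, and *Shh* at 0 UMIs, which allows up to 2.75 CPM by the limit of 3 counts. Of the SyS-like level of the same tumor the shares of *Gli1*, *Gli2*, *Gli3* and *Ptch1* were 45.1%, 48.8%, 41.1% and 14.7%, while *EGFP* was at 10.4%. The 39 pericyte-like cells of PD+MP stood at 41.1%, 40.8%, 27.3% and 17.7% for the same genes, so the *Gli* shares were not particular to pericyte-like cells. Neutrophil-like cells had *Ptch1* at 58.0 to 164 CPM and *EGFP* at 9.15 to 29.9 CPM. Their means of *Gli1*, *Gli2* and *Gli3* were 19.8, 77.4 and 114 CPM over 3 tumors and 163 cells. T or NK-like cells had *Ptch1* at 13.4 to 99.9 CPM with *EGFP* at 0 to 5.33 CPM. The part of carried-over RNA in these values was not tested.

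Clusters left unnamed held 6775 cells. Cluster 1, which had 3413 cells in the BP tumors and SyS markers but *Acta2* among its leading genes, resembled SyS-like cells of the same tumors in *Ptch1* (299 and 333 CPM), *Shh* (17.5 and 15.8 CPM) and *Gli1* (27.8 and 25.2 CPM), while *Hhip* was at 67.1 and 55.6 CPM. Clusters 5 and 17, of low depth, had *Ptch1* means of 490 and 493 CPM and *EGFP* at 16.8 and 20.5 CPM, below the SyS-like range. With these clusters joined to the SyS-like class, all calls on the members were kept.

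Within the SyS-like class *Ptch1* and *Hhip* did not move together in every cluster. Clusters were made without the members, but their differences were picked after the values were seen and are given with no test. In each tumor the clusters with at least 50 cells differed in *Ptch1* by between 1.97-fold (MP) and 6.92-fold (BP replicate 2), and in *Hhip* by between 1.44-fold (BP replicate 2) and 8.40-fold (PD+MP). *Gli1* differed by between 1.32-fold (MP) and 2.09-fold (PD+MP).

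Clusters 2, 21 and 22 had the lowest *Ptch1* on average. Among the leading genes of cluster 2 were *Bdnf*, *Col1a1*, *Runx2* and *Pthlh*, of cluster 21 *Mgp*, *Bmp5* and *Penk*, and of cluster 22 *Sst*, *Egfl6* and *Col1a1*. In cluster 2, the only one of these with at least 50 cells in every tumor, *Ptch1* was at 116 CPM (BP replicate 1), 122 (BP replicate 2), 156 (MP), 233 (MP+BP) and 80.0 (PD+MP), below the SyS-like level of each tumor. *Hhip* in the same cells was at 162, 105, 327, 151 and 302 CPM, above the SyS-like level of each tumor. *Shh* was at 10.4, 7.99, 2.47, 11.4 and 1.54 CPM, below it in each, and *Gli1* at 25.2, 33.7, 34.6, 40.2 and 47.7 CPM, above it in all but BP replicate 1. In cluster 21 *Hhip* was at 108 (BP replicate 2), 385 (MP+BP) and 305 CPM (PD+MP). Cluster 22 did not share this pattern. Its *Hhip* was at 88.5 to 110 CPM over 2 tumors, BP replicate 2 and MP+BP, whose SyS-like levels were 80.4 and 127 CPM. Its *Shh* was at 13.3 to 25.6 CPM. Set beside each other in cluster 2, the *Hhip* value was above the *Ptch1* value in BP replicate 1, MP and PD+MP. It was below the *Ptch1* value in BP replicate 2 and in MP+BP, which held most of the cells of cluster 2. The order of these 2 genes was not tested.

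The highest *Shh* value of any cluster was 44.5 CPM (exact 95% interval 34.8 to 56.2, from 71 UMIs in 61 cells) in cluster 19 of MP+BP, where *Ptch1* was also high at 474 CPM. In the other tumors cluster 19 held *Shh* at 14.0 CPM (BP replicate 1) and 11.6 CPM (MP), within the range of the remaining clusters. In PD+MP, clusters 8 and 10, which held cells of that tumor alone at this size, reached the highest *Smo* (140 CPM in cluster 8) and the highest *Gli2* and *Gli3* (208 and 433 CPM in cluster 10) of its SyS-like clusters. Cluster 10 was shallow, at 0.359 of the median UMI count of its cells' own tumor.

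**Figure D3:**
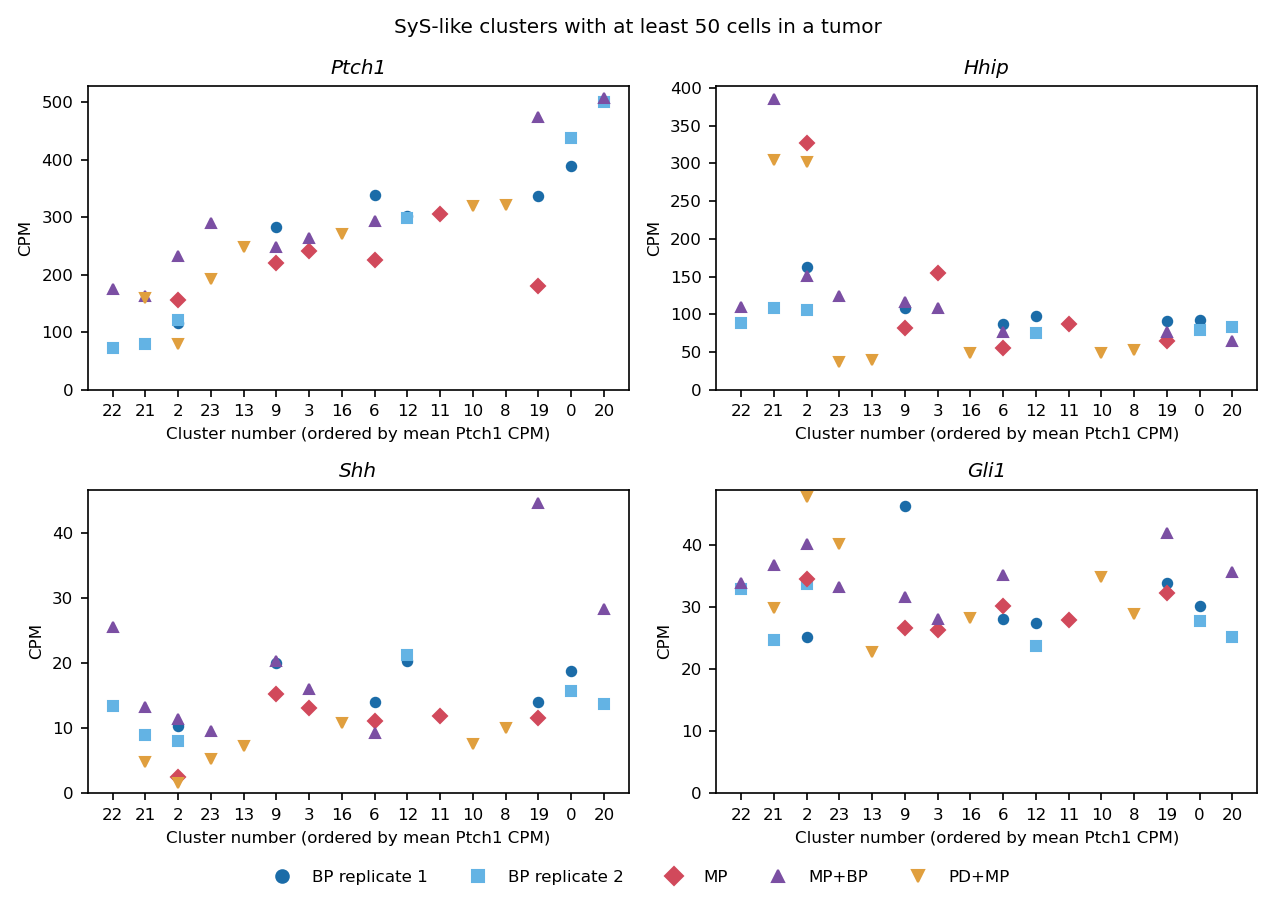
Level of *Ptch1*, *Hhip*, *Shh* and *Gli1* (CPM, axes from 0) in each SyS-like cluster, with clusters ordered by their mean *Ptch1* level and each symbol standing for the cells of 1 tumor. The clusters at the left, 22, 21 and 2, hold the lowest *Ptch1*. *Hhip* reaches 385 CPM in cluster 21 of MP+BP but lies at 88.5 to 110 CPM in cluster 22, and *Gli1* stays between 22.8 and 47.7 CPM throughout.

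Single cells were also compared at equal depth, with every SyS-like cell thinned to 3000 UMIs and shallower cells left out (111 to 1160 per tumor). The question was whether cells in which one member was found more often held another. A *Gli1* UMI went with a *Ptch1* UMI in 5 of 5 tumors, with *Ptch1* found in 62.5% of cells with *Gli1* and 54.3% of cells without (BP replicate 1), 56.8% and 52.8% (BP replicate 2), 48.0% and 45.9% (MP), 51.6% and 44.4% (MP+BP), and 52.4% and 50.3% (PD+MP). The mean difference was 4.70 ± 2.84 percentage points (SD, n = 5, exact two-sided sign-flip permutation p = 0.0625, adjusted over 12 pairs 0.125). This p is the smallest that 5 tumors allow, so no pair could pass the threshold.

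*Gli2* with *Gli3* (5.02 ± 1.92 points), *Gli1* with *Gli2* (1.92 ± 1.06), *Smo* with *Ptch1* (1.94 ± 1.44), *Ptch1* with *Hhip* (1.75 ± 1.13) and *Gli1* with *Hhip* (1.504 ± 1.406) also differed in the same direction in 5 of 5 tumors (SD, n = 5, each with the same exact permutation p). Within clusters the odds ratio of *Gli1* with *Ptch1* was above 1 in every tumor, from 1.06 to 1.42, and so was that of *Ptch1* with *Hhip*, from 1.13 to 1.23. For *Gli1* with *Hhip* it was 0.977 in both MP+BP and PD+MP. For *Smo* with *Ptch1* it was 0.928 in BP replicate 2 and 0.987 in MP, and from 1.006 to 1.151 in the other tumors. Cells with a *Shh* UMI, which were 2.19% to 4.71% of the thinned cells, did not differ in 1 direction from the rest in any of the 6 other genes paired with it. *Ptch1* was found more often in them in 4 of 5 tumors, with a mean difference of 2.83 ± 3.86 points (SD, n = 5, exact permutation p = 0.188, adjusted 0.321).

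**Figure D4:**
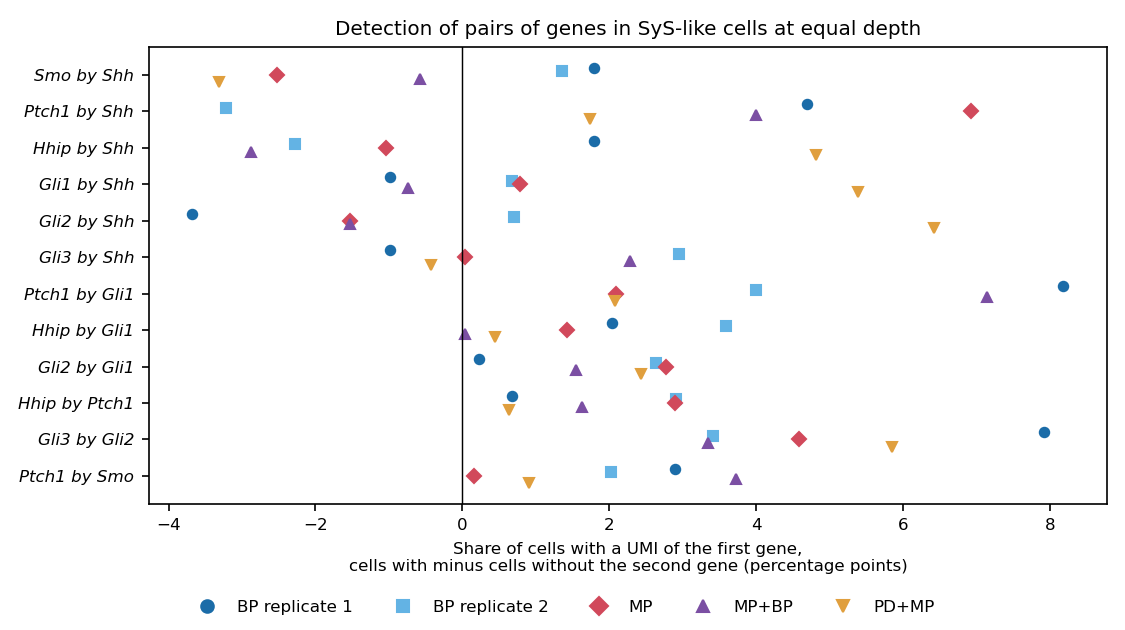
Difference in detection (percentage points) for 12 pairs of Hedgehog genes in SyS-like cells thinned to 3000 UMIs, with 1 symbol per tumor. *Ptch1* by *Gli1* stands for the share of cells with a *Ptch1* UMI among cells with a *Gli1* UMI minus that among cells without one, and the other pairs are written likewise. The 6 pairs that do not involve *Shh* lie above 0 in all 5 tumors, and the 6 pairs with *Shh* scatter on both sides of 0.

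The histology labels set 3 tumors with BP (BP replicates 1 and 2 and MP+BP) beside 2 without (MP and PD+MP), and the members were compared between these groups in SyS-like cells alone. *Shh* stood at 16.9 ± 0.564 CPM (SD, n = 3) with BP in the label and at 10.8 ± 2.04 CPM (SD, n = 2) without, and the groups did not overlap. *Dhh* stood at 0.985 ± 0.172 and 0.473 ± 0.0569 CPM and did not overlap either. These were 2 of the 9 members, beside 17.7% of all genes not overlapping in that direction and 10.4% in the other. The other 7 members overlapped between the groups, among them *Hhip* (101 ± 23.4 and 67.1 ± 19.1 CPM) and *Gli1* (30.2 ± 2.95 and 28.5 CPM).

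By edgeR 0 of the 9 members were called, beside 0% of all genes. *Shh* had a log2 difference of 0.54 ± 0.23 (unadjusted p = 0.0587, edgeR adjusted p = 0.463), *Dhh* of 0.95 ± 0.43 (edgeR adjusted p = 0.47) and *Hhip* of 0.48 ± 0.27 (edgeR adjusted p = 0.519). Over all genes the smallest adjusted p was 0.34, while an unadjusted p under 0.05 was reached by 885 genes in the higher and 928 in the lower direction, and DESeq2 called 284 higher and 85 lower, none of them a member. *Smo* and *Gli3* had log2 differences of -0.25 ± 0.35 and -0.36 ± 0.36 that turned to 0.40 and 0.23 without PD+MP, the tumor with the highest level of both. Whether the BP replicates came from 1 animal was not stated.

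Across the 35 sums of tumor and named class, the genes whose log2(CPM + 1) was most like that of a member, among genes that clustering did not use, were *Prox1* (Pearson r = 0.933), *Cxadr* (0.909) and *Cacng4* (0.894) for *Ptch1*, and *Onecut2* (0.878), *Foxb1* (0.875) and *Tfap2c* (0.847) for *Hhip*. For *Shh* they were *Uba1* (0.878), *C230038L03Rik* (0.855) and *Fbxo2* (0.845). For *Gli1* they were *Arhgef19* (0.86), the co-receptor gene *Gas1* (0.837) and *Abat* (0.825), for *Gli2* *Arhgap44* (0.913), *Smarca1* (0.91) and *Zfp618* (0.902), and for *Gli3* *Trim2* (0.906), *Fat1* (0.9) and *Cbx5* (0.898). *Smo* was most like *Peli2* (0.86), *D630045J12Rik* (0.858) and *Copa* (0.847). *Dhh* was most like *Abca4* (0.895), *Kank3* (0.825) and *Fam91a1* (0.812), and *Ihh* had no gene above *Gm30551* (0.628), followed by *Wif1* (0.608) and *6330411D24Rik* (0.582). These correlations describe the sums, which share 5 libraries and differ in depth.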

How the data were processed

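Tumors were dissociated and single cell libraries made with droplet 3′ chemistry. Per the file headers and the labels, reads were aligned to mm10 and counted by Cell Ranger 7.2.0. Each matrix deposited by the authors, already filtered for empty droplets, holds unscaled UMI counts for every gene in every cell, 89996321 to 118649103 UMIs per tumor, neither normalized nor corrected for free RNA. Settings for intronic reads are not given in the sources used here. Tumors were grouped by the histology in their labels. Both BP tumors carry labels that begin alike, and whether they came from 1 animal is not stated. Their SyS-like sums differed beyond sampling noise (chi-square per degree of freedom 64.1 over 20099 genes), so they are not copies of 1 library and were counted as 2 samples. Of 10 pairs of tumors they were the most alike (the others gave 167 to 483), and the value does not show that they are independent animals. In the class comparisons the p-values rest on how far the difference within a tumor varied over these 5 tumors. In the histology comparison they rest on the spread between tumors of the same group.

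Cells with at least 750 genes and at most 25% mitochondrial UMIs were kept, as in the study, which removed 9154 of 51670 cells. The highest Scrublet scores up to the expected share, 5.35% to 8.27%, removed a further 2957 cells as doublets. Cells were clustered with scanpy 1.11.5 and leidenalg 0.10.2 (3000 variable genes without the members and pathway lists, 30 components, 20 neighbours, resolution 1). Classes were named where at least 3 listed markers were met and no other class had more of its markers among the 10 leading genes. Clusters under 33.3% of the median depth, with no marker of their best class among those genes, stayed unnamed. Counts were summed per tumor and class with at least 20 cells and fitted in edgeR 4.0.16 (R 4.3.3; TMM, filterByExpr, robust quasi-likelihood) with tumor as a block, since paired classes come from the same tumor. DESeq2 1.42.0 and other settings served as alternatives. In tests on simulated data edgeR called more unchanged genes than its threshold allows, so calls near the threshold are weak. All 9 members passed the low-count filter in every comparison. Likeness was measured on log2(CPM + 1) over sums, for genes of at least 5 CPM on average. Exact intervals are Poisson for levels and binomial for shares and ratios, at 95%, and cover counting error only. The named pathway genes are those called in a comparison, up to 3 per list and direction with the largest change, and the members were named throughout. A called gene of the lists is not reported here. Members and lists were chosen with earlier results of these data known. Coordinates are from GENCODE M21 (GRCm38) and promoters from RefSeq.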

Additional observations from a re-analysis of the deposited data

Results flagged for a closer look

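In 5 of 36 sets of 5 tumors (1 set per member and class) 1 tumor lay far from the other 4 by Dixon's criterion. Chance meets it in about 1 of 20 sets of normally distributed values. That rate does not hold for counts near 0, and a set with UMIs in only 1 tumor always meets the criterion. *Shh* in pericyte-like cells was at 3.73 CPM in MP+BP (4 UMIs), against 0 to 0.785 CPM in the others. *Ihh* in pericyte-like cells was at 0.932 CPM in MP+BP (1 UMI) and at 0 in the others. *Dhh* in macrophage-like cells was at 0.285 CPM in MP (1 UMI) and at 0 in the others. *Hhip* in macrophage-like cells was at 3.45 CPM in MP+BP (9 UMIs), against 1.26 to 1.85 CPM. *Gli3* in macrophage-like cells was at 10.9 CPM in PD+MP (69 UMIs), against 2.93 to 5.03 CPM, and SyS-like *Gli3* was also highest in PD+MP (300 CPM).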

How the results depend on the processing

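Leaving out the tumor block (no replicate block) kept 6, 8 and 8 member calls against pericyte-like, endothelial-like and macrophage-like cells, with 2487, 4500 and 5326 genes called higher and 1521, 2765 and 3366 lower, and changed no call on a member. The histology comparison has no pairs.

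With total counts as the only scaling, 5233 genes were higher against pericyte-like cells (80.5% of calls, against 63.9%), 6781 against endothelial-like cells (75.0%, against 61.8%), and 9316 were higher and 1787 lower against macrophage-like cells (83.9%, against 61.6%). Between histology labels DESeq2 called 284 genes higher and 85 lower. Leaving out 1 tumor gave 0 to 323 higher and 0 to 222 lower, the highest counts being those without MP, and no member was called.

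*Gli1* against pericyte-like cells became called without scaling, without the low-count filter, with doublets kept, and at the stricter limits of 1500 genes or 10% mitochondrial UMIs (log2 differences 1.02, 0.81, 0.93, 0.93 and 0.78). *Dhh* against pericyte-like cells, not called, turned to -0.88 with doublets kept, to -0.036 at 1500 genes and to -0.24 at 10% mitochondrial UMIs, and, leaving out 1 tumor, ranged from -0.17 (MP) to 1.32 (BP replicate 1), being -0.10 without BP replicate 2. *Dhh* against macrophage-like cells lost its call with doublets kept, at 1500 genes and at resolution 0.5 (1.42, 2.50 and 2.53), and without BP replicate 1 or 2. Between histology labels, *Gli1* (-0.03) turned to 0.084 without scaling, to 0.001 with doublets kept and to 0.006 at resolution 2, and ranged from -0.078 to 0.049 when 1 tumor was left out, above 0 without BP replicate 1, BP replicate 2 or PD+MP. Left out in the same way, *Smo* ranged from -0.70 to 0.40 and *Gli3* from -0.78 to 0.23, lowest without MP and above 0 only without PD+MP. The causes were not tested.

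Keeping doublets moved mean levels outside SyS-like cells by more than their SD. In pericyte-like cells *Dhh*, *Ptch1* and *Hhip* became 1.55, 67.7 and 16.1 CPM. In endothelial-like cells *Smo*, *Ptch1*, *Hhip*, *Gli1*, *Gli2* and *Gli3* became 23.2, 76.0, 18.0, 6.54, 14.4 and 52.1 CPM. In macrophage-like cells *Shh*, *Dhh*, *Smo*, *Ptch1*, *Hhip*, *Gli1*, *Gli2* and *Gli3* became 2.54, 0.221, 22.5, 50.8, 11.7, 5.68, 15.1 and 33.6 CPM, and at resolution 0.5 *Ptch1* became 15.6 CPM.

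Depth limits the ligands most, since pericyte-like cells of PD+MP held 256616 UMIs in all, where a count of 0 allows up to 11.7 CPM.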
